A study of Mus musculus with 6 samples.

Results

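The genes described here are 35 components of protein folding in the endoplasmic reticulum (ER) and of the unfolded protein response. They were chosen by name out of 41669 gene symbols in the table, with earlier results of these data known. They were grouped by role into 3 stress sensors (Atf6, Ern1 and Eif2ak3), 3 genes downstream of PERK (Ddit3, Ppp1r15a and Ppp1r15b), 11 chaperones and their helpers, 6 enzymes of disulfide bonds, 6 degradation genes and 6 translocon genes. All 35 were rows of the table and all 35 passed the filter on low counts. They were measured by RNA sequencing in B cells from the spleen, with 3 female mice and 3 male mice of the NZB/W F1 hybrid, which develops a lupus-like disease. All 6 mice were at the late stage of that disease. All 6 cultures were of column-selected B cells stimulated for 24 h with CpG, DNA that Toll-like receptor 9 recognises. The labels give no age, and the groups shared the strain, the disease, the stage and the stimulus, so sex is the only contrast. No healthy or unstimulated cells were analysed here, and a response to CpG or to disease could therefore not be measured.

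The ER is where secreted and membrane proteins, antibodies among them, are threaded through the Sec61 channel, folded by chaperones and joined by disulfide bonds. When unfolded proteins build up, 3 sensors in the ER membrane respond. IRE1 (encoded by Ern1) splices the mRNA of the transcription factor XBP1, ATF6 is cut to release a transcription factor, and PERK (Eif2ak3) slows translation and favours that of ATF4. Together these branches raise chaperones, disulfide enzymes and the machinery that retrieves and degrades misfolded proteins. The response is best known in the B lineage for the growth of the ER as B cells become antibody-secreting cells.

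The sequences below are shown because some promoters of these genes hold an element of the response by which the genes were chosen. Its share among them is therefore not an independent result about these genes. The ER stress element, a composite site read by ATF6 and XBP1 together with NF-Y, was searched as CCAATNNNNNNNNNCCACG on both strands of RefSeq promoters (GRCm38.p6, 250 bases before to 50 after each start, from the reference strain and not from NZB/W F1 mice). RefSeq promoters were matched for 30 of the 35 genes. Atf6, Ppp1r15b, Hyou1, Manf and Sec61a1 had no match and were not searched. The element stood in 9 of these 30 promoters (30%), against 39 of 32851 promoters in all (0.119%). A shorter variant, ERSE-II, searched as ATTGGNCCACG, stood in 2 more (6.7%, against 0.037% of all promoters), and the XBP1-type core TGACGTGG in 0 of the 30 (0.676% of all promoters). All 3 motifs hold CCACG on one strand, and none of the 11 promoters held more than 1 kind of motif. Of the 11 promoters with an element, 7 belonged to chaperones, 2 to disulfide enzymes (Ero1lb and Pdia6) and 2 to degradation genes (Herpud1 and Syvn1). Of the promoters searched, 0 of 2 sensors, 0 of 2 genes of the PERK branch and 0 of 5 translocon genes held one. Each run is written 5′ to 3′ along the gene with its strand, and capitals mark the outer blocks of the element, which read CGTGG and ATTGG where the element lies on the opposite strand.
Hspa5, chr2:34772020-34772048, + strand: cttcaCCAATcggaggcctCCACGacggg
Hsp90b1, chr10:86705633-86705661, - strand: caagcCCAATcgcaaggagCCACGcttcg
Hsp90b1, chr10:86705528-86705556, - strand: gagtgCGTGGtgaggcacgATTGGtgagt
Calr, chr8:84847070-84847098, - strand: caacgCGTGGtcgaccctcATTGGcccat
Canx, chr11:50325795-50325823, - strand: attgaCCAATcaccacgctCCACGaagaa
Creld2, chr15:88819515-88819543, + strand: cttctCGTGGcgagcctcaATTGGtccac
Dnajc3, chr14:118937822-118937850, + strand: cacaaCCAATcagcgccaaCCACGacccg
Pdia6, chr12:17266486-17266514, + strand: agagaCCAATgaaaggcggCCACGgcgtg
Ero1lb, chr13:12565677-12565705, + strand: ggcctCGTGGtcccgcctcATTGGccgcc
Syvn1, chr19:6046527-6046555, + strand: cgcaaCCAATcggcggtagCCACGggaac
Herpud1 (ERSE-II), chr8:94386372-94386392, + strand: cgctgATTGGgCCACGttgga
Dnajb11 (ERSE-II), chr16:22857847-22857862, + strand: cggcgATTGGcCCACG

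The element of Hspa5 lay from -65 to -47 relative to the start, those of Hsp90b1 from -212 to -194 and from -107 to -89, and that of Syvn1 from -44 to -26. The ERSE-II of Dnajb11 lay after the start, at bases 8 to 18. A match is a description of the letters, and binding was not measured in these cells. The 11 genes with an element had a median level of 51.9 CPM per kb of transcript (1.59 to 1174) and the 19 without one 46.6 (0.402 to 679), and the ranges overlapped.

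Levels are given as CPM, the usual scaling of a gene's estimated count by its library's total, and library totals lay between 24089561 and 35659883. A floor of 3 counts corresponds to 0.0841 to 0.1245 CPM, depending on the library. The labelled cell type was checked on 8 B cell markers, all of which were detected, with sums of 2066 to 2275 CPM in females and 2067 to 2314 in males. The summed plasma cell markers (8 genes, with Tnfrsf17 at 0 in all 6 libraries) were higher in females without overlap, at 284 to 508 against 212 to 248 CPM. Singly, Prdm1, Igj and Fam46c were higher in females without overlap, and Irf4, Sdc1 and Cd28 overlapped. Slamf7 was lower in females without overlap (19.97 to 23.1 against 27.16 to 36.45 CPM). The summed macrophage markers (9 genes) were higher in females without overlap, at 3.30 to 6.23 against 0.629 to 0.929 CPM. The summed T cell markers (8 genes) overlapped, at 4.49 to 7.62 and 3.73 to 5.28 CPM. Their part in the results below was not tested. Female replicate 3 stood apart, with a TMM factor of 0.817 against 0.993 to 1.07 in the other 5 libraries, so the main results that rest on it are given with and without it. With library totals in place of TMM factors the median over all genes shifted by -0.12 on the log2 scale. Fold changes below are from edgeR with TMM factors, and CPM are of the library total.

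Summed by role, chaperones and disulfide enzymes were more abundant than the sensors. Single genes did not all follow this order. Per kb of transcript the sensor Atf6 (25.9 CPM) ranked 26 of the 35, above the chaperone genes Hyou1 (12.1) and Creld2 (7.98). The 35 genes together took 1.47% of all counts in both sexes (14735 ± 1399 CPM in females and 14674 ± 944 in males, SD, n = 3). Within that sum chaperones held 55.9 to 59.9% in each library, disulfide enzymes 19.5 to 20.9%, the translocon 10.8 to 13.4%, degradation genes 4.88 to 6.65%, the PERK branch 1.97 to 2.28% and the sensors 1.395 to 1.73%. Levels per kb of transcript allow for length but not for GC content. Across the 35 genes their mean over 6 libraries ran from 0.402 CPM per kb for Ppp1r15a to 1174 for Hsp90b1. The transcript of Ppp1r15a has 55.7% GC and that of Hsp90b1 43.8%. The part of GC content in the order of levels was not tested. Hsp90b1 encodes GRP94, the HSP90 of the ER. It was followed by Pdia3, the disulfide isomerase that works with calnexin and calreticulin (679), by Hspa5, which encodes the central chaperone BiP (572), by Canx, the membrane lectin chaperone calnexin (453), by Ssr3, a subunit of the translocon-associated complex (294.5), and by Calr, the soluble lectin chaperone calreticulin (266). These 6 lay at or above the 98.2 percentile of the 12022 tested genes with a known length. The library ranges of Pdia3 (587.9 to 744.5) and Hspa5 (432 to 650) overlapped, though Pdia3 was the higher in all 6 libraries. Hspa5 was above Canx (415 to 491) in 5 of 6 libraries and Ssr3 (262.2 to 327.9) above Calr (148 to 341.7) in 4 of 6, so the order within those pairs was not separated by the spread.

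**Figure D1:**
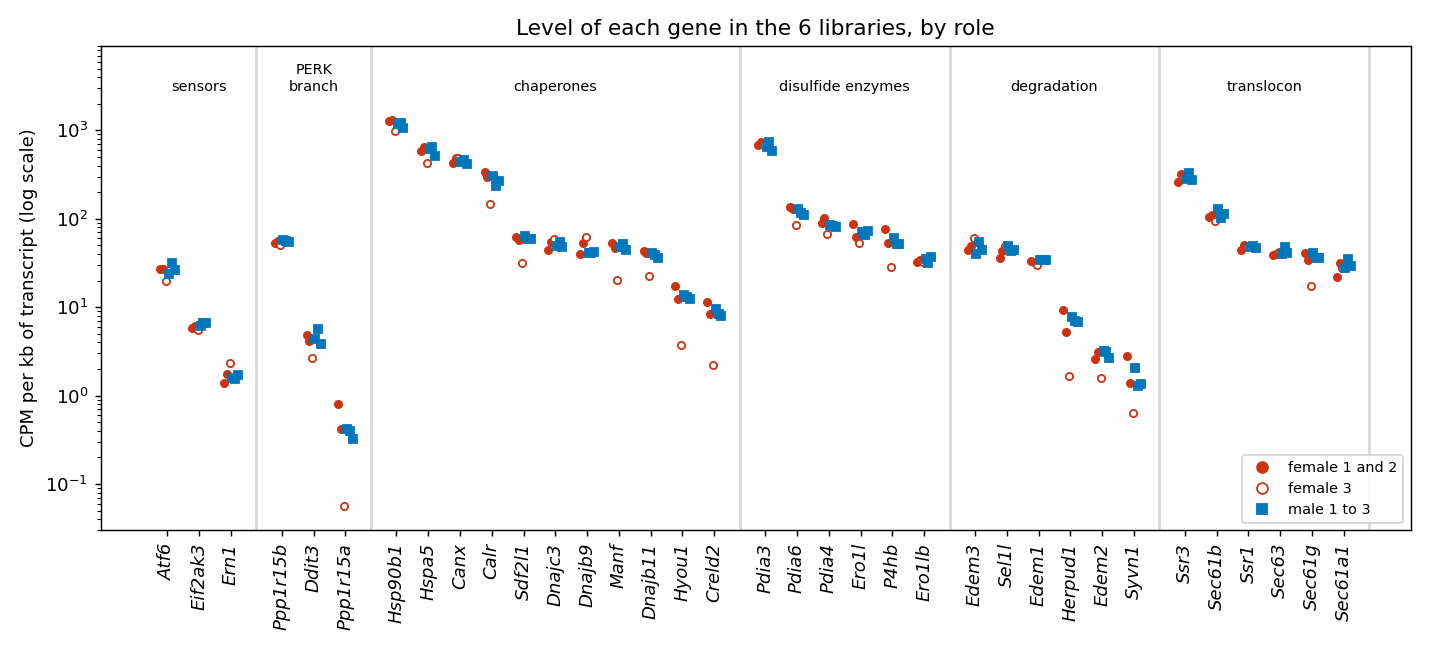
CPM per kb of transcript (log axis) of each of the 35 genes, ordered by level within its role, with 1 point per library. Chaperones led by Hsp90b1 reach about 1174 CPM per kb while Ppp1r15a lies at 0.402, and the open circle of female replicate 3 falls below the other points for Hyou1, Creld2, Herpud1 and Ppp1r15a.

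Partners in the same process were present at unlike levels, in the same direction in every library. In each pair named here the more abundant gene had the lower GC content, as with Sel1l (47.7%) and Syvn1 (57.4%). The part of GC content in these ratios was not tested. BiP was 184 to 422 times as abundant as Ern1 per kb, and 295 to 422 times without female replicate 3. Sel1l, the adaptor of the degradation complex, stood at 12.8 to 76.5 times its ubiquitin ligase partner Syvn1, and at 12.8 to 33.6 times without that library. Ppp1r15b, the constitutive subunit of the phosphatase that reverses PERK signalling, stood at 67.55 to 889.5 times the stress-induced subunit Ppp1r15a, and at 67.55 to 170.3 times without it. The oxidase gene Ero1l was 1.64 to 2.72 times as abundant as its paralog Ero1lb. Edem3 exceeded Edem2, both of which mark glycoproteins for disposal, by 12.5 to 38.5 times, and by 12.5 to 17.6 times without female replicate 3. Syvn1 shares 91 exonic bases with Mrpl49 on the other strand and Ddit3 shares 68 with Mars, and no source says that reads were assigned by strand, so the counts of Syvn1 and Ddit3 are uncertain. Longer stretches on the other strand were annotated for Ppp1r15b (640 bases shared with Gm26616), Sec61a1 (388 with Gm44170), Hsp90b1 (270 with 1810014B01Rik), Eif2ak3 (221 with Gm43292), Sec63 (173 with Gm26860) and Manf (166 with 4930524O07Rik and 146 with Dcaf1), and shorter ones for 4 more genes.

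Females and males did not differ detectably in any of the 35 genes. Of the 35, 0 passed an FDR of 0.05 in edgeR, where 0.0575% of 12172 tested genes did, and 0 had an unadjusted p under 0.05, against 2.89% of all genes. All 35 had an adjusted p of 0.999 or 1 in edgeR. DESeq2 and limma-voom also called 0, with 0 at an unadjusted p under 0.05. Log2 fold changes (female over male) ran from -0.36 to 0.49, with a median of 0.05 against 0.00 for all genes. With TMM factors 22 of 35 were positive, and with library totals 11 of 35. The 95% interval lay within a 2-fold change in either direction for 28 of the 35, and the intervals of the other 7 reached beyond it. Each sample is a separate mouse, per its label. In bulk RNA, fewer cells of a kind and less RNA per cell cannot be told apart.

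**Figure D2:**
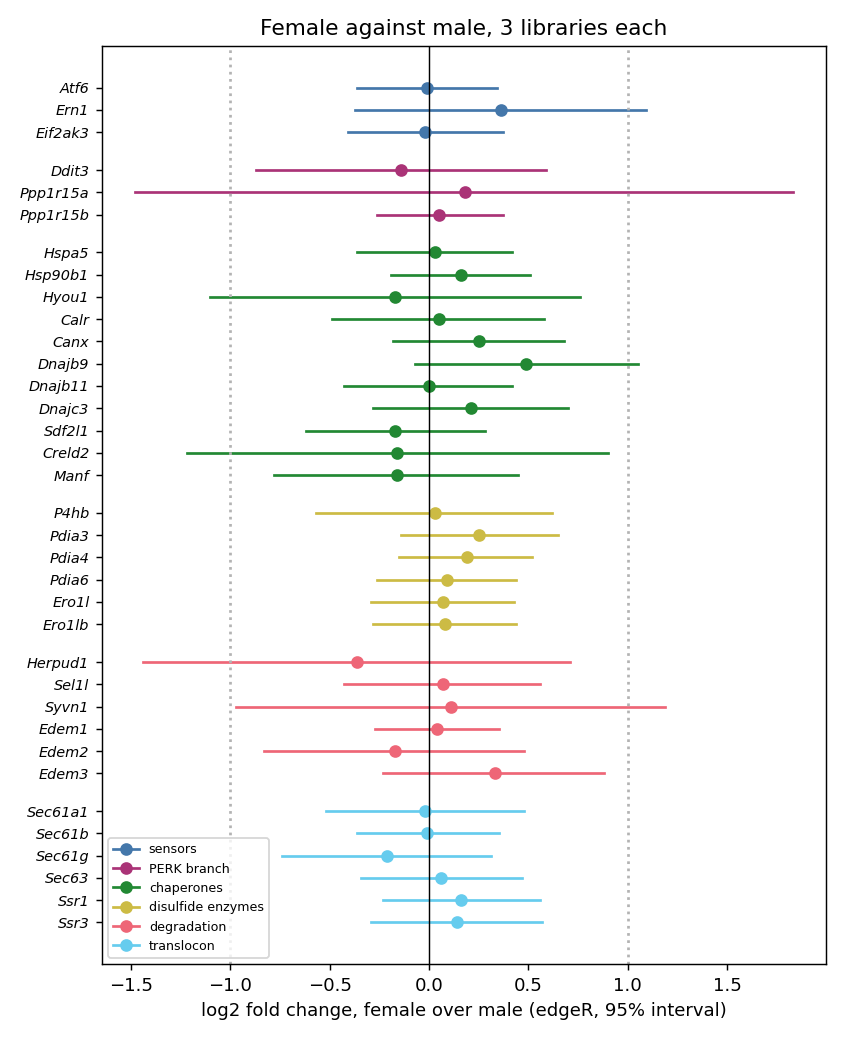
Log2 fold change (female over male) of each of the 35 genes with its 95% interval from edgeR, coloured by role, with dotted lines at a 2-fold change. All 35 intervals hold 0, with Dnajb9 the farthest at 0.49, and the widest are those of Ppp1r15a, Herpud1, Syvn1 and Creld2.

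None of the 3 sensors differed detectably between the sexes. Atf6 (chromosome 1: 170704674 to 170867771) had 197, 196 and 143 CPM in female replicates 1 to 3 and 173, 227 and 190 in male replicates 1 to 3 (log2 fold change -0.01 ± 0.15, SE; 95% interval -0.36 to 0.34; adjusted p = 0.999, edgeR). Ern1 (chromosome 11: 106394650 to 106487852) had 9.54, 12.3 and 16.3 CPM in females and 10.99, 10.79 and 11.97 in males (0.36 ± 0.31). Female replicate 3 was the highest of all for Ern1 and the lowest for Atf6, and without it the log2 fold change of Ern1 was -0.02. Eif2ak3, the PERK gene, had 26.1, 27.8 and 24.6 CPM in females and 27.62, 29.96 and 30.26 in males (-0.02 ± 0.17), with overlapping groups. Per kb, Atf6 (25.9) stood above Eif2ak3 (6.14) and Eif2ak3 above Ern1 (1.72), with no overlap between these ranges.

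Downstream of PERK, none of the 3 genes differed detectably between the sexes. Ddit3, which encodes CHOP, had 4.35, 3.67 and 2.34 CPM in females and 3.90, 5.07 and 3.37 in males (log2 fold change -0.14 ± 0.31). Ppp1r15b had 300.3, 309.6 and 279.1 CPM in females and 322.9, 314.5 and 307 in males (0.05 ± 0.13), and its spread was among the smallest of the 35. Ppp1r15a, known as GADD34 and shown per library after its values were seen, had 2.23, 1.16 and 0.158 CPM in females and 1.19, 1.13 and 0.905 in males. Its female libraries held both the highest and the lowest value, and the lowest, 5.6 counts in female replicate 3, was close to the floor. Its log2 fold change was 0.18 (95% interval -1.48 to 1.83), and 0.66 without that library.

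Chaperones differed more between genes than between the sexes, and 0 of 11 were called. Hsp90b1 had 3611, 3686 and 2760 CPM in females and 3370, 3453 and 3014 in males (log2 fold change 0.16 ± 0.15). Hspa5, picked for display after its values were seen, had 2128, 2380 and 1587 CPM in females and 2262, 2388 and 1865 in males (0.03 ± 0.17). Canx had 1821, 2088 and 2102 CPM in females and 1864, 1979 and 1777 in males (0.25 ± 0.19, and 0.09 without female replicate 3). Female replicate 3 was the lowest library for Hsp90b1 and Hspa5 but the highest for Canx. The smallest p of all 35 was that of Dnajb9, which encodes the BiP co-chaperone ERdj4, a feedback inhibitor of IRE1. Dnajb9 (chromosome 12: 44205559 to 44210326) had 99.0, 131 and 151 CPM in females and 102, 101 and 103 in males (0.49 ± 0.24; 95% interval -0.07 to 1.05; unadjusted p = 0.0786 and adjusted p = 0.999, edgeR). Only 2 of its 3 female libraries lay above the males, and without female replicate 3 its log2 fold change was 0.20. Dnajc3, another co-chaperone, which also inhibits PERK, had means of 271 ± 39.8 CPM in females and 263 ± 18.6 in males.

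The other chaperones and helpers were lowest in female replicate 3. Hyou1, an exchange factor that recharges BiP, had 77.6, 56.1 and 16.6 CPM in females and 61.8, 58.5 and 55.9 in males. Creld2 had 15.7, 11.5 and 3.02 CPM in females and 12.9, 11.5 and 10.8 in males. Both genes, picked for display after their values were seen, had males within a narrow band and females on both sides of it. Calr had 571 ± 220 CPM in females and 589.5 ± 72.8 in males, Manf, a secreted stress-induced factor, 90.7 ± 40.2 and 108 ± 9.44, Dnajb11, a BiP co-chaperone, 89.7 ± 28.2 and 96.8 ± 6.35, and Sdf2l1, a partner of Dnajb11, 55.6 ± 18.4 and 67.3 ± 3.69. Without female replicate 3 the log2 fold changes of Hyou1, Creld2, Calr, Manf, Dnajb11 and Sdf2l1 were 0.19, 0.22, 0.25, 0.09, 0.15 and -0.01, against -0.17, -0.16, 0.05, -0.16, 0.00 and -0.17 with it, and none was called.

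Disulfide enzymes all had small positive fold changes with TMM factors, from 0.03 to 0.25 on the log2 scale, and 2 of 6 were positive with library totals. Pdia3 had 1896, 2062 and 1899 CPM in females and 1776, 2030 and 1628 in males (0.25 ± 0.17; 95% interval -0.14 to 0.65). Pdia4, an isomerase induced by ER stress, had 216, 245 and 160 CPM in females and 202.6, 200.5 and 191.5 in males (0.19 ± 0.14). Females 1 and 2 were above all males for Pdia4 and female 3 was below them. In CPM with TMM factors its female libraries (196 to 246) did not overlap with the males (184 to 192). Pdia6 had means of 254 ± 61.2 CPM in females and 258 ± 21.3 in males, and P4hb, the founding protein disulfide isomerase, 151 ± 69.4 and 157 ± 16.1. Ero1l, the oxidase that recharges these enzymes, had 299 ± 77.4 and 308 ± 19.1, and Ero1lb 139.9 ± 4.36 and 147 ± 11.3.

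Among the degradation genes, 1 had no overlap between the sexes. Edem1 (chromosome 6: 108828641 to 108859356), an early glycoprotein disposal factor, had 192.7, 188.4 and 176.4 CPM in females and 200.3, 199 and 199.6 in males. It was the only 1 of 35 genes whose female libraries all lay below the male ones, where 7.55% of all tested genes did so, and 0 of 35 lay all above, where 2.69% did. With TMM factors the count was 0 below and 2 above (Hsp90b1 and Pdia4), against 4.58% and 4.41% of all genes. The log2 fold change of Edem1 was 0.04 ± 0.13 with TMM factors, in the other direction from its CPM. Edem3 had 281, 312 and 385 CPM in females and 254.8, 343.3 and 280.3 in males (0.33 ± 0.24, and 0.04 without female replicate 3). Herpud1, a stress-induced scaffold of the degradation complex, had 18.4, 10.2 and 3.28 CPM in females and 15.2, 13.8 and 13.4 in males (-0.36 ± 0.46), and 0.01 without female replicate 3. Sel1l had means of 268 ± 39.95 CPM in females and 287.5 ± 18.8 in males, Syvn1 5.59 ± 3.85 and 5.41 ± 1.46, and Edem2 5.62 ± 1.83 and 6.84 ± 0.6735.

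Translocon genes had 0 of 6 called and a small spread. Their median SD of log2 CPM within a sex was 0.13, against 0.37 for the chaperones, 0.30 for the degradation genes, 0.24 for the disulfide enzymes and 0.37 for all tested genes. Without female replicate 3 it was 0.13 as well, and the other roles were nearer to it, with 0.12 for the disulfide enzymes, 0.15 for the chaperones and 0.17 for the degradation genes. Ssr3 had 775.2, 939.8 and 885 CPM in females and 839.6, 969.5 and 816.5 in males (log2 fold change 0.14 ± 0.18). Ssr1, the alpha subunit of the same complex, had 410, 473 and 459 CPM in females and 446.3, 456.5 and 430.4 in males (0.16 ± 0.17). Sec61g, the gamma subunit of the channel, was the exception, with 75.5, 63.3 and 32.2 CPM in females and 77.3, 66.5 and 67.7 in males (-0.21 ± 0.23). Without female replicate 3 the log2 fold changes of Ssr3, Ssr1 and Sec61g were 0.00, 0.02 and -0.01. Of the others, Sec61a1, the pore of the channel, had 86.0 ± 15.6 and 97.0 ± 12.5 CPM, Sec61b 58.2 ± 4.24 and 64.4 ± 6.905, and Sec63, which brings BiP to the channel, 244 ± 9.94 and 259.9 ± 27.55. Sec61b, Sec61g and Ero1lb have copies elsewhere that are at least 95% identical over 200 bases or more, and those of Sec61b and Sec61g that are rows of the table held at most 1.0 counts.

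Summed by role and scaled by library totals, females and males differed by less than the SD within a sex, except for the PERK branch. The chaperone sum was 9022, 9551 and 7384 CPM in females and 8870, 9073 and 7919 in males, a log2 ratio of 0.01. The log2 ratios of the sums were 0.06 for disulfide enzymes, -0.01 for degradation genes, -0.04 for the translocon and -0.12 for the sensors. That of the PERK branch, 306.9, 314.5 and 281.6 CPM in females and 328, 320.7 and 311.2 in males, was -0.09, beside an SD of 0.06 within a sex on the log2 scale, and the groups overlapped. It rests on Ppp1r15b, which makes up most of the sum. With TMM factors other roles passed their SD: the ratio was 0.20 for disulfide enzymes (SD 0.09) and 0.14 for chaperones (SD 0.10), and 0.05 for the PERK branch (SD 0.10), 0.15 for degradation genes (SD 0.23), 0.11 for the translocon (SD 0.20) and 0.01 for the sensors (SD 0.13).

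**Figure D3:**
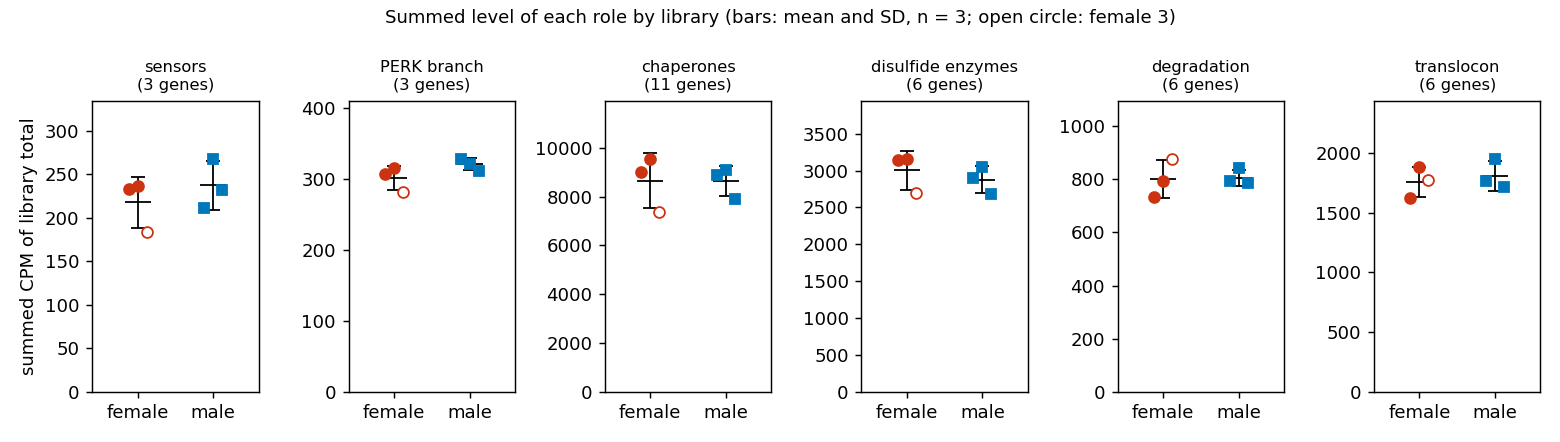
Summed CPM of the genes of each role in each library, with linear axes from 0, bars for the mean and SD (n = 3) and an open circle for female replicate 3. The chaperone sum is lowest in female replicate 3 (7384 CPM) while the degradation sum is highest there (878 CPM), and the sexes overlap in all 6 panels.

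The largest differences among libraries were those of female replicate 3 from the others of both sexes. They went with transcript GC content and with transcript length. In female replicate 3, 23 of the 35 genes had their lowest value of all libraries and 5 their highest, where 51.4% and 13.8% of all tested genes did. On log2(CPM + 0.1), as the difference from the other 5 libraries' mean, Ppp1r15a was at -2.40 there, Herpud1 at -2.06, Creld2 at -2.0, Hyou1 at -1.88, Syvn1 at -1.37, Manf at -1.28, Sec61g at -1.11 and P4hb at -1.04. At the other end stood Ern1 at 0.56, Dnajb9 at 0.50 and Edem3 at 0.40. Genes over 2-fold lower in it numbered 8 of 35, against 25.5% of all tested genes. In each of the other 5 libraries they numbered 0 of 35, against 1.12 to 3.22% of all tested genes. In female replicate 1, 2 of 35 were over 2-fold higher (Ppp1r15a at 1.41 and Syvn1 at 1.15), and the share of all genes was not computed. Both deviations are from a mean that includes the low values of female replicate 3, which makes them larger. Across the 35 genes, which share 1 library and are not replicates, the deviation had a Spearman correlation of -0.67 with GC content, against -0.59 across the 12022 tested genes with a known transcript. With GC taken from the longest transcript in place of the principal one it was -0.62. In female replicate 1 and male replicate 1 the correlation across the 35 had the other sign, at 0.51 and 0.66 (0.51 and 0.45 for all genes), and in the other 3 libraries it was 0.09 to 0.36. For these 5 libraries the reference includes female replicate 3, so the positive sign may come in part from that library. Correlations without it were not computed. Transcript length went with the deviation as well, at 0.58 across the 35 in female replicate 3 (0.24 for all genes). In female replicate 1 and male replicate 1 the correlation with length was -0.50 and -0.54 across the 35 (-0.15 and -0.27 for all genes). The parts of GC content and length were not tested apart.

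Split at a GC content of 50%, a value chosen after the data were seen, the 16 genes at or above it had a median deviation of -0.95 in female replicate 3 and the 19 below it -0.05. The same medians over all tested genes were -0.96 and -0.09. The split cut across roles. Canx (42.2% GC) stood at 0.14 and Calr (50%) at -0.95, Pdia3 (46.9%) at 0.02 and P4hb (53.8%) at -1.04, and Sel1l (47.7%) at 0.18 and Syvn1 (57.4%) at -1.37. Ern1 (50.6%), Sec61a1 (53.9%, -0.06), Eif2ak3 (51.2%, -0.20) and Sec61b (51.4%, -0.23) lay above the other GC-rich genes, and Sec61g (44.6%) below the other GC-poor ones. With a trend in transcript length and GC content removed from each library, 5 of the 35 lay over 2-fold from the others in female replicate 3, and the median size of the deviation was 0.32 against 0.45 before. Ppp1r15a (-1.49) and Herpud1 (-1.01) were over 2-fold lower before and after. Sec61b (1.19), Ern1 (1.08) and Sec61a1 (1.02) were over 2-fold higher only after the trend was removed. RNA quality was not measured in the files, and its part was not tested.

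**Figure D4:**
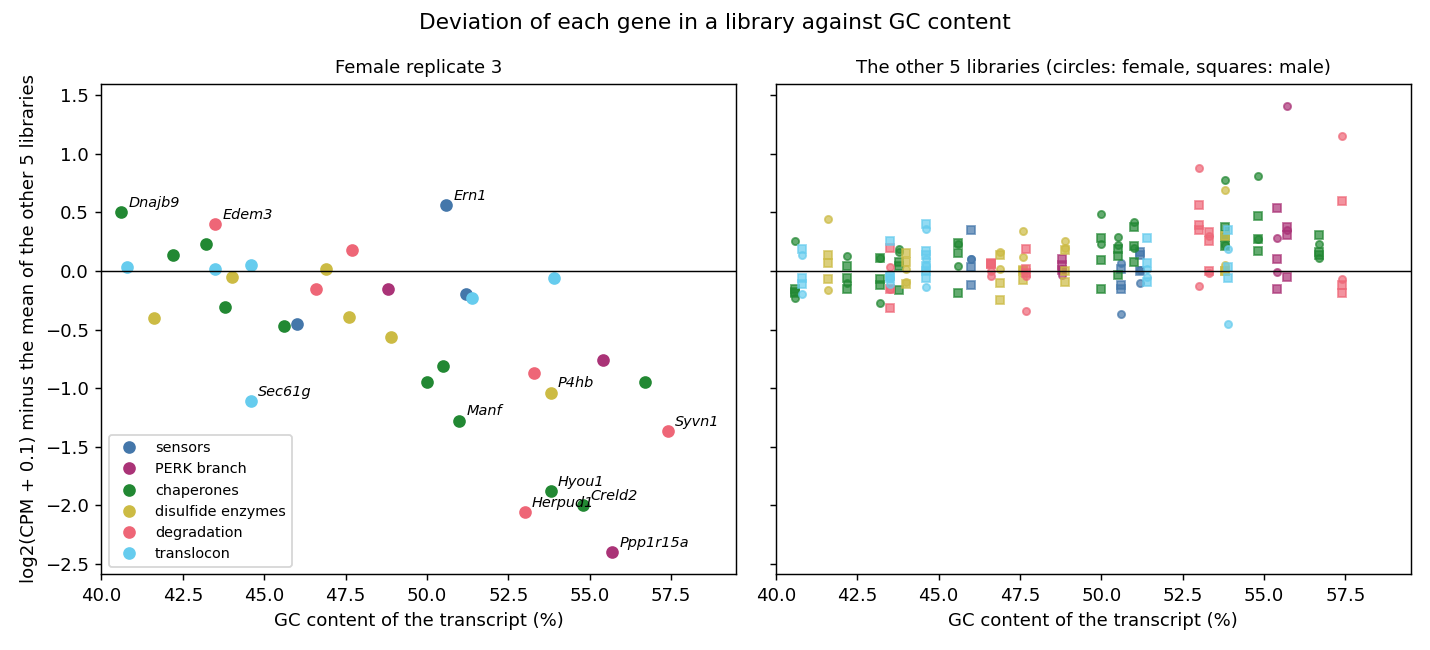
Deviation of each of the 35 genes from the mean of the other 5 libraries, in log2 units, against the GC content of its transcript, for female replicate 3 (left) and for the other 5 libraries (right). In female replicate 3 the GC-rich genes Ppp1r15a, Herpud1, Creld2 and Hyou1 lie near -2 while GC-poor Dnajb9 and Edem3 lie above 0; in the other libraries the points stay between -0.45 and 1.41.

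Without female replicate 3 the spread of the 35 genes was smaller. Their median SD within a sex was then 0.15 log2 units, against 0.27 for all tested genes, and it was 0.23 against 0.37 with that library. In this 2 against 3 comparison 0 of 35 were called, the log2 fold changes ran from -0.18 to 0.66, and 20 of 35 were positive. On library totals 3 then lay below the males (Sel1l, Edem1 and Sec63) and 4 above (Hsp90b1, Dnajb11, Pdia4 and Pdia6), where 10.8% and 7.65% of all tested genes did.

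Other genes of the pathway were taken from a list of 78, of which 71 passed the filter on low counts. Of these, 0 were called in edgeR, 1 had an unadjusted p under 0.05, 31 had a positive and 40 a negative log2 fold change, and the median was -0.05. Xbp1, the factor activated by IRE1, had 124, 118 and 72.9 CPM in females and 114.7, 122.4 and 103.5 in males (log2 fold change 0.00, 95% interval -0.38 to 0.38). Gene-level counts do not show its splicing. Atf4, the factor downstream of PERK, had 162, 116 and 41.7 CPM in females and 169, 161 and 165 in males (-0.56 ± 0.35; 95% interval -1.37 to 0.24), with female replicate 1 inside the male range on library totals and all 3 females below the males with TMM factors. Mbtps2, a protease that releases ATF6, had 136, 132 and 108 CPM in females and 105, 75.5 and 130 in males (0.41 ± 0.21).

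The targets of ATF4 and CHOP were the list farthest from 0. Of 7 tested, 0 were called, 7 had a negative log2 fold change, and the median was -0.78. It was -0.50 without female replicate 3 and -0.72 after removal of the trend in length and GC, with 7 of 7 negative in both. The median of -0.78 was the value of Nupr1, which had 0 to 21.8 counts. Trib3, Chac1, Atf5, Sesn2 and Nupr1 were low, with means of 0.444 to 2.26 CPM. The genes downstream of PERK among the 35 did not share the direction, with Ddit3 at -0.14, Ppp1r15a at 0.18 and Ppp1r15b at 0.05. Chac1, a glutathione-degrading enzyme gene, had 1.11, 1.42 and 0.452 CPM in females and 2.35, 2.14 and 2.01 in males (-1.03 ± 0.43; 95% interval -2.04 to -0.02; unadjusted p = 0.0464 and adjusted p = 0.999, edgeR). Asns, the asparagine synthetase gene, named after its values were seen, had 132, 123 and 43.7 CPM in females and 155, 161 and 195 in males (-0.69 ± 0.31). Both genes were lower in all 3 females than in any male, as were 6 of the 71 genes, against 7.55% of all tested genes, on library totals. Atf3, a stress-induced transcription factor gene, also named after its values were seen, was called only by limma-voom with sample quality weights (log2 fold change -1.21, adjusted p = 0.0226) and had 37.48, 14.75 and 11.02 CPM in females and 38.78, 34 and 39.64 in males.

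The other lists had medians nearer to 0. Of the further folding genes 9 of 17 were positive (median 0.00), of the degradation genes 6 of 13 (-0.06), of the translocation genes 12 of 24 (0.00) and of the transducers 4 of 10 (0.00). The members with the smallest p were Sil1, a BiP exchange factor gene, with 1.34, 1.17 and 0.374 CPM in females and 1.80, 2.18 and 1.51 in males, Derl2, a degradation channel gene, with 86.0, 119.7 and 118.8 against 97.7, 85.9 and 91.6, and Sec62, a translocation factor gene, with 126, 182 and 335 against 164.5, 160.3 and 143.2. None of the 3 was called, the groups did not overlap for Sil1, and the high value of Sec62 was that of female replicate 3.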

How the data were processed

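RNA of 6 libraries, 3 female and 3 male, was analysed from the deposited table, whose values are the authors' estimated counts per gene symbol, with a column for each mouse. The tools named in the submitters' processing notes are kallisto and DESeq2, and the build is GRCm38.p6. Tool versions and annotation: not given in the sources used here. Counts were rounded to whole numbers and tested over the whole table with edgeR 4.0.16 (R 4.3.3; filterByExpr, TMM, glmQLFTest, Benjamini-Hochberg adjusted p under 0.05, 12172 genes). Alternatives were DESeq2 1.42.0, limma 3.58.1 (voom, with and without sample weights), other scalings and filters, the replicate number as a block, removal of 322 immunoglobulin genes or of a length and GC trend, and each library left out. Any 2 libraries differed beyond sampling noise.

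CPM are of the column total. Lengths and GC content are of the principal transcript in GENCODE M21, matched for 96.46% of 41669 symbols; copies were searched with blastn 2.17.0. The genes, roles and lists were chosen with earlier results of these data known. Every library value is given for the sensors and, in each other role, for the gene with the highest mean, the 2 with the smallest p and any called or without overlap; of the other pathway genes Xbp1, Atf4, those called, and the smallest p per list. The other values were chosen after they were seen. Protein sequences were not used here. Counting error alone is covered by the floors. Figures were drawn with matplotlib 3.10.9.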

Additional observations from a re-analysis of the deposited data

How the results depend on the processing

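The count of 0 genes called among the 35 was the same in all 10 other settings and in the 6 fits that left out a library. The lowest adjusted p of any of the 35 was 0.0854 (Pdia4, limma-voom with sample quality weights, where 7 of 35 had an unadjusted p under 0.05, all higher in females, against 21.8% of all genes in either direction and 10.4% higher in females). Without female replicate 1, 2 of 35 did, against 12.1%. Over all genes tested the count was 7, and 35 with DESeq2, 229 with the sample weights, 11 with no filter, 11 without the trend in length and GC, and 4 to 12 with 1 library left out. Of the other ER genes the weights called 1 (Atf3). Genes without overlap between the sexes numbered 1 (lower in females, against 7.55% of all genes) and 2 with TMM factors (higher, against 4.41%). With RLE factors 2 were higher, and the share of all genes was not computed. The 2 with the trend removed were higher in females, against 5.77% of all genes, and the cause was not tested. With 1 library left out 2 to 9 did not overlap, where 10.8 to 28.8% of all genes were lower and 3.86 to 8.54% higher. The 9 were those without female replicate 1, with 5 lower and 4 higher, where 28.8% and 8.54% of all genes were. With TMM factors and then with RLE factors, the log2 ratios of the sums were 0.14 and 0.16 for all 35 genes (0.01 with totals), 0.05 and 0.07 for the PERK branch, 0.20 and 0.22 for disulfide enzymes, 0.15 and 0.17 for degradation, and 0.11 and 0.13 for the translocon. With the trend removed they were 0.05 for the PERK branch and 0.20 for disulfide enzymes. These shifts are near the -0.12 by which totals moved the median of all genes. Up to 14 of the 35 fold changes changed sign in a setting (without female replicate 3, Ern1 and Herpud1 among them), none of them called. The labels do not say whether the replicate numbers pair the mice. Correlations of deviations between same-numbered libraries were 0.22, 0.04 and 0.07, too few pairs to decide it. With the replicate block 0 of the 35 and 0 of the other ER genes were called. In female replicate 3, Ppp1r15a had 5.6 counts, close to the floor of 3.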
